A study of Homo sapiens with 16 samples.

Results

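Convergent genes lie tail to tail: they are read from opposite DNA strands towards each other, and here the 3' end of each gene ran past the 3' end of its partner, so that both shared a stretch of DNA. They were found from the deposited positions alone, as pairs of a gene on the plus strand and a gene on the minus strand in which the minus gene's lower coordinate fell inside the plus gene and its upper coordinate beyond it. Spans of 400 kb and over were left out, as were genes whose start site lay within 1000 bp of the start site of a gene on the other strand, and the chromosomes were 1 to 6, 8 to 18, 20 and 21. This gave 279 pairs and 557 genes of 19333 in the table, with 279 genes on the plus strand, 278 on the minus strand and 1 gene shared by 2 pairs.

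Total RNA was sequenced from HEK293 cells, a line derived from human embryonic kidney. The cells had been transfected with a negative control RNA (scramble, 2 libraries) or with 10 nM of siRNA to TOP1 (Top1 KD, 2 libraries), and all were harvested on day 5 after the first transfection. The series description says that passages differed among samples, but no passage is given for any of the 4 libraries, so whether it runs with group or replicate cannot be told apart. Which of the study's siRNAs to TOP1 the 2 libraries received is not given in the sources used here. The identifiers in the table are not paired with gene names, so the level of TOP1 and of markers of the line could not be looked up, and members are given by position on build hg19.

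DNA topoisomerase I, the product of TOP1, relaxes the DNA that becomes overwound ahead of a transcribing polymerase and underwound behind it. Polymerases that converge push overwound DNA towards each other, and a gene's polymerase usually travels some way past the cleavage and polyadenylation site before it is released. Where the partners' ends overlap, transcription of either gene also makes RNA that is antisense to the other, and the 3' ends of genes are places where the nascent RNA can pair with its template as an R-loop.

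The overlap was short in most pairs. Its median length was 466 bp, its quartiles were 77 and 2178.5 bp, and it ran from 1 bp to 62713 bp. It was under 100 bp in 79 pairs, from 100 bp to under 1 kb in 90 pairs, from 1 kb to under 5 kb in 81 pairs and 5 kb or more in 29 pairs. It covered a median of 4.49% of the shorter partner and at most 98.0%. The pairs were spread over all 19 chromosomes of the rule, with the most on chromosome 1 (35 pairs) and chromosome 16 (29 pairs) and 1 pair on chromosome 21. Members spanned a median of 20279 bp, close to the 21731 bp of all genes in the table.

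**Figure D1:**
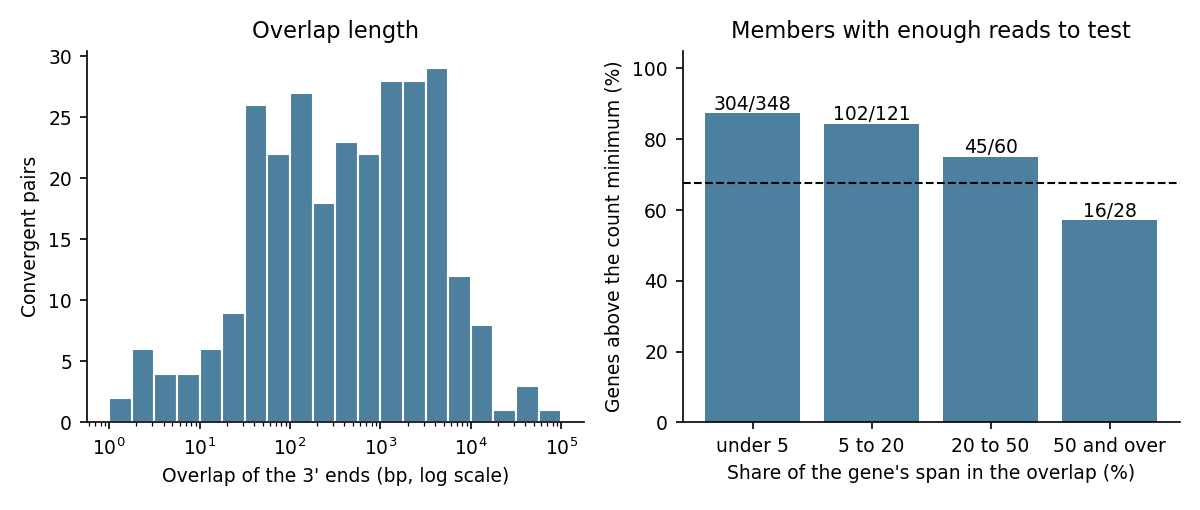
Left, the number of the 279 convergent pairs by length of the shared 3' stretch (bp, log scale). Right, the percentage of members with enough reads to be tested, by the share of the gene's own span that lies in the overlap, with counts above the bars: 304 of 348 genes with under 5% of their span shared were tested against 16 of 28 with 50% or more, and the dashed line marks the 67.7% of all genes.

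Most members were detected. A normalized count, the read count of a gene divided by the size factor of its library, of at least 10 in at least 2 libraries was reached by 467 of the 557 members (83.8%), against 67.7% of all genes and 68.6% of genes on the same chromosomes. Another 55 members (9.87%) had lower values and 35 (6.28%) were listed at 0 in all 4 libraries, against 19.7% of all genes at 0. Both partners passed in 209 pairs, 1 partner in 50 pairs and neither in 20 pairs. Of tail-to-tail neighbours whose ends were separated by a gap of at most 5 kb, 1276 of 1644 (77.6%) passed. The share that passed was 87.4% where under 5% of the gene's span was shared, 84.3% at 5 to 20%, 75% at 20 to 50% and 57.1% at 50% or more.

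A property of the table bears on any gene that shares its span. All 697 genes that lay wholly inside another gene were listed at 0 in every library, both the 277 inside a gene of the same strand and the 426 inside a gene of the opposite strand, whereas 3114 of the other 18636 genes (16.7%) were at 0. Of all 711 genes whose whole span was covered by other genes, the inner ones included, 709 (99.7%) were at 0. Only 2 members lay wholly inside another gene. How reads in a partial overlap were assigned, on either strand, is not given in the sources used here and was not tested, so the values of the other members may or may not hold reads from the shared stretch. Of the 35 members at 0, 33 had some span outside other genes. In 21 pairs 1 partner was at 0 while the other was not, and in 8 of these the other partner's mean was at least 100.

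Tested members had a median normalized count of 395 (quartiles 76.3 and 1149) over the 4 libraries, against 542 for all tested genes. They were also shorter, with a median span of 23174 bp against 31412.5 bp for all tested genes. Per kb of span outside other genes the level was 15.2 for members and 15.5 for all tested genes. Levels per kb take all reads of a gene to come from that span, which was not tested. Within a pair, the higher partner had a median of 6.30 times the normalized count per kb of the lower one. Of the 209 pairs, 79 differed by at least 10-fold and 43 by less than 2-fold. Over all tested genes the quartiles of the level per kb were 4.26 and 47.6. The same values for other neighbouring pairs are not given here, so whether convergent partners stand further apart than other genes was not tested. Spearman's rho between the partners' levels per kb was 0.053 over the 209 pairs, which share their libraries.

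In scramble, members took 2.52% and 2.56% of all reads on genes. In Top1 KD they took 2.64% and 2.69%. The groups did not overlap, and the means were 2.54% ± 0.0217 and 2.67% ± 0.0365 (SD, n = 2 each). The difference of 0.125 percentage points had a two-sided exact permutation p of 0.333, the smallest that 2 against 2 libraries allow. The 10 members with the largest increase of their mean share added up to 0.104 points of it, and the mean share was higher in 287 members and lower in 235. With genes near an opposite start site kept, the difference was 0.041 points (exact permutation p = 0.667).

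Next, each gene was compared between Top1 KD and scramble with limma on log2(normalized count + 1), fitted over all 13086 tested genes. Calls needed an adjusted p below 0.05 together with a 1.5-fold or larger change. Over all tested genes 8.15% were called, 3.88% higher in Top1 KD and 4.26% lower. Of the 467 tested members 28 (6.0%) were called, 18 higher (3.85%) and 10 lower (2.14%), so that the share called higher was near that of all genes. The adjusted p alone was passed by 59 members (12.6%) and by 14.8% of all tested genes. The median log2 fold change was 0.015 in members and 0.0025 in all tested genes, and the middle 90% of members ran from -1.19 to 0.85. The 28 calls became 11 without scramble replicate 1, 14 without scramble replicate 2, 18 without Top1 KD replicate 1 and 40 without Top1 KD replicate 2. In those fits the share of all genes called was between 2.42% and 10.2%. Most calls were in abundant members: 27 of the 28 had a mean of at least 100, where 8.06% of members and 9.66% of all tested genes were called.

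The 18 members called higher rose by 0.59 to 1.57 on the log2 scale (median 0.84), and 5 of them at least doubled. The 10 called lower had log2 fold changes from -4.26 to -0.73 (median -0.89), and 4 of them had a fall of at least 2-fold. In all 28 the 2 scramble libraries and the 2 Top1 KD libraries did not overlap. The thresholds for a call already favour groups that lie apart, so this is no separate support for the calls. On the plus strand 12 members were called higher (5.04%) and 2 lower (0.84%) of 238 tested. The minus strand had 6 higher (2.62%) and 8 lower (3.49%) of 229. Over all tested genes of both strands the shares were 3.88% higher and 4.26% lower. Shares of all genes by strand are not given here, and the difference between the strands was not tested. Among tail-to-tail neighbours with a gap, 94 of 1276 (7.37%) were called, 48 higher and 46 lower.

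The largest rise among well-expressed members was in ENST00000316843, a gene of 19289 bp on the plus strand of chromosome 17 (chr17:18128901-18148189). Its normalized counts were 194 and 252 in scramble and 688 and 629 in Top1 KD. Both Top1 KD libraries were thus more than double either scramble library, the means were 223 ± 40.6 and 659 ± 41.9 (SD, n = 2 each), and the log2 fold change was 1.57 (SE 0.21, limma adjusted p = 0.000259). Its partner on the minus strand (chr17:18148150-18162230) rose too, from 974 and 1210 to 2310 and 2379, with a log2 fold change of 1.11 (SE 0.13, limma adjusted p = 9.19e-05). The partners shared only 40 bp (chr17:18148150-18148189). Both calls held whichever library was left out.

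The second rise was in ENST00000537896 on chromosome 8 (plus strand, chr8:72755367-72965282), with normalized counts of 114 and 96.8 in scramble and 328 and 217 in Top1 KD. The groups were apart, although the Top1 KD libraries differed from each other by more than 100. Its log2 fold change was 1.34 (SE 0.31, limma adjusted p = 0.00954). The call was lost without scramble replicate 1 (1.45), without scramble replicate 2 (1.22) and without Top1 KD replicate 1 (1.04). This pair had 1 of the 3 longest overlaps with both partners tested, 31797 bp or 58.5% of the shorter gene. The partner on the minus strand was low, at 53.3 and 23.8 in scramble and 41.1 and 81.4 in Top1 KD, and its groups overlapped (log2 fold change 0.68, SE 0.60, limma adjusted p = 0.491).

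The largest falls among well-expressed members were both on chromosome 16. ENST00000284262, a gene of 95252 bp on the plus strand (chr16:87636511-87731762), had normalized counts of 588 and 656 in scramble and 107 and 227 in Top1 KD. Neither Top1 KD library reached the level of a scramble library, and the log2 fold change was -1.99 (SE 0.29, limma adjusted p = 0.000474). The partner, which shared 14 bp with it, had 45.9 and 55.4 in scramble and 75.8 and 43.6 in Top1 KD, and these groups overlapped. The ratio of plus to minus gene went from 12.6 and 11.6 in scramble to 1.41 and 5.11 in Top1 KD (log2 -2.17, SE 0.62, limma adjusted p = 0.0244), and this call was lost without scramble replicate 1, scramble replicate 2 or Top1 KD replicate 1 and with no filter on low values, where leaving out a library gave -3.10 to -1.24.

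ENST00000289805, a gene of 5353 bp on the minus strand (chr16:89762751-89768103), had 653 and 456 in scramble and 116 and 163 in Top1 KD. The means were 554 ± 139 and 139 ± 33.3 (SD, n = 2 each), and the log2 fold change was -1.98 (SE 0.26, limma adjusted p = 0.000239). The partner on the plus strand, with 22 bp shared, had 450 and 414 in scramble against 552 and 536 in Top1 KD, and its log2 fold change of 0.33 was not called (SE 0.18, limma adjusted p = 0.234). The calls of both genes that fell held whichever library was left out.

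Some other called members, picked out after their values were seen, had strong changes beside a partner of much lower count. A plus-strand gene at chr12:57623110-57628714 rose from 1058 and 1392 to 2842 and 2961 (log2 fold change 1.26, SE 0.13, limma adjusted p = 5.71e-05). Its partner, which shared 27 bp, had only 28.8 and 11.4 in scramble and 18.4 and 20.4 in Top1 KD. A minus-strand gene at chr3:52558403-52569070 rose from 731 and 824 to 1582 and 1496 (log2 fold change 0.99, SE 0.13, limma adjusted p = 0.000302), and its partner, with 109 bp shared, stayed between 9.60 and 13.0 in all libraries. A minus-strand gene at chr14:24649425-24658170 rose from 1296 and 1368 to 2513 and 2513 (log2 fold change 0.92, SE 0.11, limma adjusted p = 0.000141). Its partner shared 39 bp and had 70.4, 73.9, 16.2 and 73.7, with 1 Top1 KD library far below the other 3.

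Does a change of 1 gene come with a change of its convergent partner? Of the 209 pairs with both partners tested, 185 had no called partner, 21 had 1 and 3 had both. The same counts over all neighbouring pairs are not given here, so whether 3 is many or few was not tested. Where 1 partner rose and the other was not called (14 pairs), the called partner had a median log2 fold change of 0.82 and the other 0.11, with a range from -1.03 to 0.68 and 8 of 14 above 0. Where 1 partner fell (7 pairs), the medians were -0.93 and 0.07, and 5 of the 7 other partners were above 0. Over the 209 pairs the partners' log2 fold changes had a Pearson r of 0.05 and a Spearman rho of 0.11, and 109 pairs (52.2%) had the same sign, against 51.4% of all 13062 neighbouring pairs of tested genes. Pearson's r was 0.24 in the 109 pairs with both means at least 100, 0.05 in the 364 such tail-to-tail pairs with a gap, and -0.02 for the differences between the 2 scramble libraries in the same 109 pairs. In those 109 pairs r was 0.31 with overlaps under 100 bp (30 pairs) and 0.29 from 100 bp to under 1 kb (39 pairs). It was 0.15 from 1 kb to under 5 kb (32 pairs) and -0.22 at 5 kb and over (8 pairs). Without the minimum mean the order was reversed, from -0.10 under 100 bp (56 pairs) to 0.51 at 5 kb and over (20 pairs). These values describe pairs that share libraries and have no p.

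**Figure D2:**
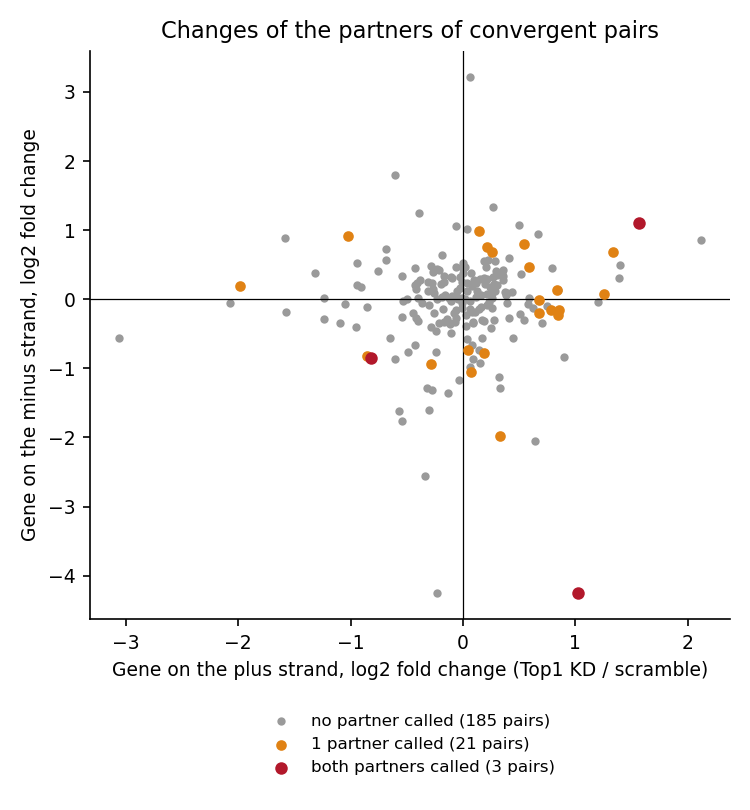
Log2 fold change (Top1 KD over scramble, log2 of normalized count plus 1) of the plus-strand gene against that of the minus-strand gene in the 209 pairs with both partners tested. Points are coloured by the number of called partners, and the 3 pairs with both called lie at upper right, at lower left and at lower right.

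The 3 pairs with both partners called did not move alike. The pair on chromosome 17 described above rose together, and a pair on chromosome 20 (overlap chr20:39988606-39989222, 617 bp) fell together. There the plus gene had 344 and 385 in scramble and 234 and 180 in Top1 KD (log2 fold change -0.82, SE 0.24, limma adjusted p = 0.0312). The minus gene had 269 and 311 against 183 and 140 (log2 fold change -0.85, SE 0.27, limma adjusted p = 0.0439). Every Top1 KD value of this pair lay below both scramble values, but each call was lost when any 1 library was left out, with log2 fold changes of -1.01 to -0.64 for the plus gene and -1.05 to -0.66 for the minus gene. The minus gene also lost its call with no filter on low values.

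The pair on chromosome 6 (overlap chr6:43418092-43418168, 77 bp) went in opposite directions. The plus gene rose from 244 and 222 to 492 and 456 (log2 fold change 1.02, SE 0.21, limma adjusted p = 0.00513). The minus gene fell from 30.9 and 47.5 to 3.25 and 0, which are 29 and 54 reads in scramble and 3 and 0 reads in Top1 KD. The normalized level of the minus gene was 25.7-fold lower in Top1 KD (exact 95% counting interval 8.48 to 127, for counting error only). Its log2 fold change was -4.26 (SE 1.30, limma adjusted p = 0.0386). This depended on the pseudocount, with -2.76 at 5 and -6.05 at 0.1. The call of the minus gene was lost without either scramble library, with a pseudocount of 0.1 and with a replicate block, and that of the plus gene was lost without scramble replicate 1, scramble replicate 2 or Top1 KD replicate 1, where its log2 fold change was 0.95 to 1.09.

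The balance of the partners was then tested within each library, as the ratio of plus to minus gene (each count plus 1). Apart from the added 1, this ratio does not depend on the scaling of the library. The limma fit covered all 13062 neighbouring pairs of tested genes, of which 10.7% were called. Of the 209 convergent pairs 15 (7.18%) were called, 10 with a higher and 5 with a lower ratio in Top1 KD, against 53 of 542 (9.78%) tail-to-tail pairs with a gap. In 9 of the 15 a partner was itself called. The count of 15 became 2 without scramble replicate 1, 4 without scramble replicate 2, 17 without Top1 KD replicate 1 and 26 without Top1 KD replicate 2. The share of all neighbouring pairs called in those fits is not given here. The ratio moved between the groups by a median of 0.43 on the log2 scale. It differed by a median of 0.33 between the scramble libraries and of 0.49 between the Top1 KD libraries. In the 109 pairs with both means at least 100 these medians were 0.277, 0.190 and 0.237. The shift between groups compares means of 2 libraries, whereas each replicate difference compares single libraries, which vary more. Their sizes are therefore not like for like, and no ranking is drawn from them.

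Among pairs with both means at least 100, the largest shift of balance was at the chromosome 16 pair with 22 bp shared (chr16:89762751-89762772). The plus gene stood at 0.690 and 0.909 times the minus gene in scramble and at 4.73 and 3.28 times in Top1 KD. The partners thus changed order, the ratio was 4.97-fold higher (log2 2.31, SE 0.29, limma adjusted p = 2.2e-05), and this was the only ratio given here whose call held whichever library was left out. A second chromosome 16 pair (chr16:1820287-1820318, 32 bp) went from 1.76 and 1.28 to 3.01 and 3.60 (log2 1.13, SE 0.33, limma adjusted p = 0.0247). Its plus gene had 476, 384, 485 and 418 with overlapping groups, and its minus gene fell from 270 and 300 to 160 and 115 (log2 fold change -1.06, SE 0.28, limma adjusted p = 0.0195). This ratio was not called without either scramble library, and the minus gene was called only without Top1 KD replicate 1 among the fits that left out a library.

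In 2 more pairs a higher ratio came with a called rise of the plus gene. At chr14:24608174-24608176, an overlap of 3 bp, the plus gene rose from 649 and 703 to 1287 and 1141 while the minus gene had 326, 242, 187 and 307. The plus gene was called (log2 fold change 0.84, SE 0.14, limma adjusted p = 0.00142) and the ratio shifted by 1.07 (SE 0.32, limma adjusted p = 0.0312). At chr17:40724333-40725257, an overlap of 925 bp, the plus gene rose from 650 and 665 to 1282 and 1101 and the minus gene had 193, 214, 213 and 155. The plus gene was called here too (log2 fold change 0.85, SE 0.15, limma adjusted p = 0.00142) and the ratio shifted by 1.01 (SE 0.32, limma adjusted p = 0.0419). The calls of both plus genes held whichever library was left out, whereas each ratio lost its call without at least 2 of the 4 libraries and with a pseudocount of 0.1 (the second also with no filter on low values), with ratio shifts of 0.63 to 1.51 and of 0.89 to 1.13 when 1 library was left out.

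The 4 largest called falls of the ratio among pairs with both means at least 100 were in pairs whose members were not called singly. At chr15:64448011-64449680 (1670 bp, 29.0% of the shorter gene) the plus gene had 219, 215, 103 and 159 and the much more abundant minus gene 3708, 3317, 4704 and 4628. The minus gene passed the adjusted p but not the fold (log2 fold change 0.41, limma adjusted p = 0.0118), and the ratio was 2.25-fold lower (limma adjusted p = 0.0322). At chr14:24028774-24029480 (707 bp) the plus gene had 583, 505, 430 and 528, the minus gene 236, 269, 383 and 406, and the ratio was 1.78-fold lower (limma adjusted p = 0.0477).

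A pair on chromosome 2 (chr2:9628615-9628940, 326 bp) had nearly even partners in scramble, at ratios of 1.1 and 0.943, and fewer reads on the plus gene in Top1 KD, at 0.613 and 0.684 (1.57-fold lower, limma adjusted p = 0.0144). In another (chr2:48034063-48037240, 3178 bp) the plus gene had 11015 and 10997 in scramble and 7705 and 8699 in Top1 KD. That change passed the adjusted p without reaching 1.5-fold (log2 fold change -0.43, limma adjusted p = 0.00609). Its minus gene had 827, 808, 911 and 969, so the ratio went from 13.3 and 13.6 to 8.45 and 8.97 (1.55-fold lower, limma adjusted p = 0.0326). All 4 ratios lost their call without scramble replicate 1 and without Top1 KD replicate 1, and 3 of them also without scramble replicate 2. The ratio at chr14:24028774-24029480 was not called with no filter on low values or with a pseudocount of 0.1. Over the fits that left out a library the shift ran from -1.49 to -0.84, from -1.03 to -0.63, from -0.77 to -0.54 and from -0.67 to -0.59, in the order given.

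**Figure D3:**
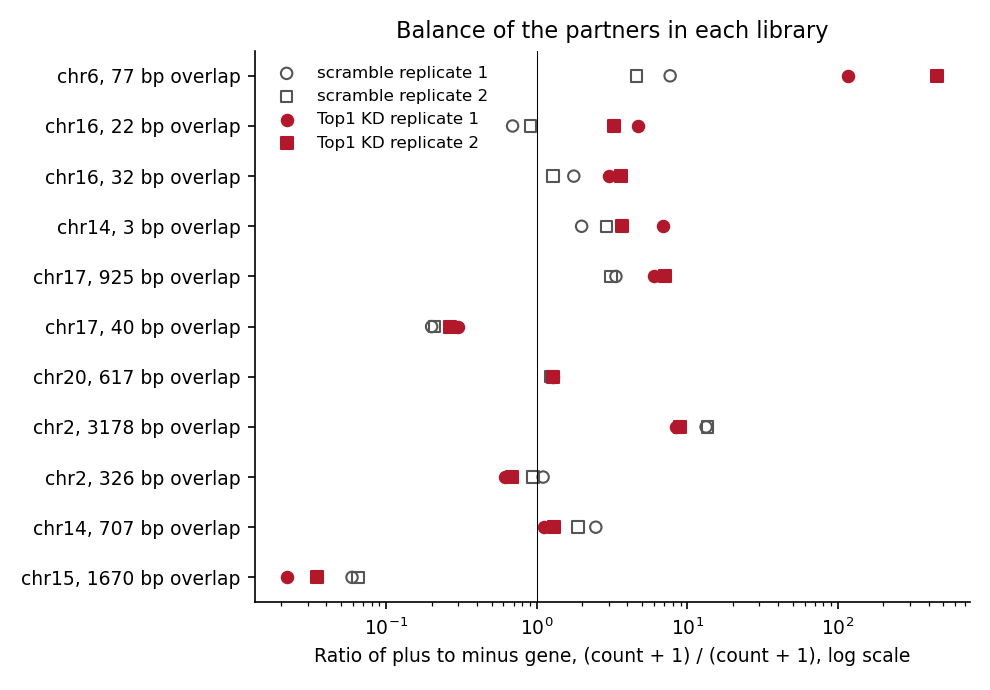
Ratio of plus-strand to minus-strand gene, (normalized count + 1) over (normalized count + 1), in each library on a log scale, for the 3 pairs with both partners called and the 4 largest called rises and falls of the ratio among pairs with both means at least 100. Open symbols are scramble and filled symbols Top1 KD, and the chromosome 16 pair with 22 bp shared crosses the line at 1 between the groups.

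How far the genes overlapped was set beside the changes. With overlaps under 100 bp, 16 of 130 tested members (12.3%) were called, 9 higher and 7 lower. With 100 bp to under 1 kb it was 8 of 158 (5.06%), with 1 kb to under 5 kb 2 of 136 (1.47%), and with 5 kb or more 2 of 44 (4.55%). The share of all tested genes called was 8.15%, so members with the shortest overlaps lay above it and the other classes below it. The median normalized counts of the classes were 328, 422, 430 and 390. Neighbours with a gap under 100 bp, the next step in the same order, had 4 of 70 called (5.71%), and those with gaps of 100 bp to under 1 kb and of 1 kb to 5 kb had 8.40% and 6.98%. Spearman's rho between overlap length and the size of the log2 fold change was -0.11 over tested members and -0.17 over those with a mean of at least 100. These are descriptions of genes that share libraries, the classes were not compared by a test, and the part that the counting of reads in the shared stretch has in them was not tested. No overlap class had a median log2 fold change further from 0 than 0.04.

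**Figure D4:**
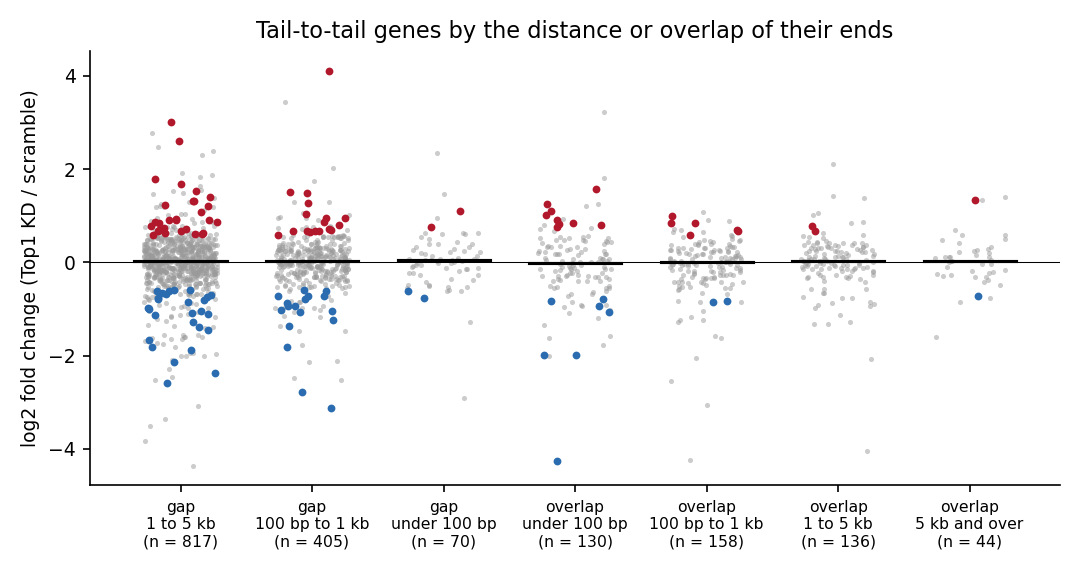
Log2 fold change (Top1 KD over scramble) of tested tail-to-tail genes by the gap between, or the overlap of, their 3' ends, with called genes in red (higher) and blue (lower), a bar at the median and n below each class. Medians lie within 0.04 of 0 in every overlap class, and 16 of 130 genes are called with overlaps under 100 bp against 2 of 136 with overlaps of 1 to 5 kb.

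Of the 20 pairs with an overlap of 5 kb or more and both partners tested, 1 had a called ratio, given here after its values were seen. At chr9:100831557-100845357 (13801 bp, 52.4% of the shorter gene) the plus gene had 853, 653, 694 and 857, and the minus gene fell from 520 and 495 to 307 and 302 (log2 fold change -0.73, SE 0.20, limma adjusted p = 0.0199). The ratio shifted by 0.78 (SE 0.25, limma adjusted p = 0.0455), a call kept only without Top1 KD replicate 1 among the fits that left out a library (0.62 to 0.94) and lost with no filter on low values and with a pseudocount of 0.1. The call of the minus gene was kept only without Top1 KD replicate 2 (-0.77 to -0.70 over these fits). The 3 longest overlaps, with the chromosome 8 pair above among them, had no called ratio. The longest overlap with both partners tested, 62713 bp at chr18:20777719-20840431 and 50.3% of the shorter gene, had a plus gene at 278, 238, 267 and 325 and a minus gene at 838, 610, 945 and 741. The groups overlapped in both genes, and the ratio differed by -0.03 (SE 0.29, limma adjusted p = 0.96). At chr5:95087023-95132071 (45049 bp, 69.1% of the shorter gene) the plus gene had 126 and 143 in scramble and 215 and 171 in Top1 KD, and the minus gene 302, 275, 259 and 240. The groups were apart in both genes, but neither passed (limma adjusted p = 0.283 and 0.599), nor did the ratio (log2 0.72, SE 0.35, limma adjusted p = 0.198). In the pair with the highest share overlapped among those with both means at least 100, 3027 bp or 72.0% of the shorter gene at chr9:131581930-131584956, the plus gene had 602, 733, 728 and 783, the minus gene 294, 406, 522 and 493, and the ratio differed by -0.37 (SE 0.24, limma adjusted p = 0.355).

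At the other end, some abundant partners shared only a few bases. At chr9:131395940-131395941 (2 bp) the plus gene had 2809 and 2507 in scramble and 3457 and 3334 in Top1 KD, which passed the adjusted p but not the fold (log2 fold change 0.36, limma adjusted p = 0.0324). Its partner had 602, 494, 556 and 785. At chr1:65298912-65298915 (4 bp) the plus gene had 1189, 932, 1556 and 1223, the minus gene 3776, 3748, 4174 and 3832, and the ratio differed by 0.30 (SE 0.18, limma adjusted p = 0.314).

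In the 3 pairs whose lower partner was most abundant the ratio was measured with an SE of 0.15 to 0.16. At chr2:75889832-75897879, with 8048 bp or 33.6% of the shorter gene shared, the plus gene had 2135, 2471, 2494 and 2651 and the minus gene 2144, 2449, 2090 and 2166. The ratio was near 1 in scramble (0.996 and 1.01) and 1.19 and 1.22 in Top1 KD (log2 0.27, SE 0.15, limma adjusted p = 0.271). At chr10:126676421-126676758 (338 bp) the plus gene had 2285, 2210, 2351 and 2132, the minus gene 2430, 2135, 2234 and 1957, and the ratio differed by 0.12 (SE 0.15, limma adjusted p = 0.677). At chr4:122737599-122738064 (466 bp) the plus gene had 2252, 2149, 1774 and 2092, the minus gene 2449, 2378, 2792 and 2805, and the ratio differed by -0.41 (SE 0.16, limma adjusted p = 0.1). In none of the 3 was a partner called.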

How the data were processed

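Single-end reads of 4 total RNA libraries (HEK293, 2 scramble and 2 Top1 KD) were cleaned by the authors with fastq-mcf and mapped with TopHat2 2.0.5, and uniquely mapped reads were kept. The submitters' processing notes name build hg19, HTSeq and DESeq2. The HTSeq mode, its strand setting and the annotation release are not given in the sources used here. The signal values the authors deposited are read counts per gene after division by each library's DESeq2 size factor, with no correction for length. Dividing them by the value of 1 read gave whole reads within 0.1 for 99.99% to 100% of values, and totals of 14681774 to 18366226 reads on genes per library. Counting intervals cover counting error only. Columns with the authors' own fold changes and p-values were not used, and 0 columns of per-library values were left without a sample. All 13 mitochondrial genes matched RefSeq positions counted from 1. None of the identifiers (0) matched the name tables used here, so no gene, sequence or gene list is given by name. The study's R-loop and polymerase ChIP samples were not analysed here.

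Members and lists were chosen with earlier results of these data known. Groups were compared with limma 3.58.1 in R 4.3.3, with a mean-variance trend, on log2(normalized count + 1) for genes with at least 10 in at least 2 libraries, with Benjamini-Hochberg adjustment over all 13086. Ratios of neighbouring genes were also fitted with limma, over 13062 pairs of tested genes that overlap or are next to each other in order of start. There the variance trend followed the level of the lower partner. The scripts were tested on simulated data. edgeR 4.0.16 and DESeq2 1.42.0 on the recovered reads, other scalings, filters, pseudocounts, thresholds and member rules, a replicate block and leaving out each library were the alternatives. By rule, the 2 largest rises and 2 largest falls among called members with a mean of at least 100 are given by identifier. Pairs are given by position: those with both partners called, the 4 largest rises and falls of the ratio, the 3 longest overlaps, the 3 with the most abundant lower partner, and the 2 lowest and 2 highest shares of overlap. Same-numbered libraries are not paired by the labels, and their deviations had a correlation of -0.01 across genes.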

Additional observations from a re-analysis of the deposited data

How the results depend on the processing

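The 28 calls stayed within 1.5 times under edgeR (29, of which 27 were among the 28, with 1089 of 13086 genes called on the recovered reads), DESeq2 (29, 27 shared), library-size scaling (33, 28 shared), no filter (27, 25 shared), and pseudocounts of 0.1 (27) and 5 (30). The replicate block gave 27 calls, all among the 28. The share of all genes called was 8.32% with edgeR, 8.39% with DESeq2 and 8.42% with library-size scaling. It was 6.47% with no filter, 7.85% with a pseudocount of 0.1, 8.36% with 5 and 8.29% with the replicate block. The 15 called ratios became 22 with the replicate block, 18 with a pseudocount of 5, 10 with a pseudocount of 0.1 and 11 with no filter. For these ratio fits the share of all neighbouring pairs called is not given here, so a change particular to convergent pairs was not tested. The deviations of same-numbered libraries had a correlation of -0.01 across genes. That single value cannot exclude a factor shared by same-numbered libraries in some of the genes. With no fold threshold there were 59 calls (12.6% of members against 14.8% of all tested genes), 35 higher and 24 lower. With genes near an opposite start site kept the set was larger, at 866 genes and 434 pairs before the count minimum. It had 49 calls (27 higher and 22 lower) and 29 called ratios. In the same fits 8.15% of all tested genes and 10.7% of all neighbouring pairs were called. How many of the 866 genes and 434 pairs passed the count minimum is not given here. The larger set therefore has no share to set beside these. The median log2 fold change of this set was -0.0087 and the difference in its share of reads 0.041 percentage points. Leaving out 1 library gave 11 to 40 calls, 8 to 24 higher, 3 to 16 lower, 2 to 26 called ratios, medians of -0.011 to 0.047 and correlations of partner changes of 0.021 to 0.060, and these fits hold 1 group with a single library, assumed to vary like the other. Library-size scaling gave a median of 0.039, beside 0.027 for all genes. The correlation of 0.05 became 0.013 with no filter and 0.071 with a pseudocount of 5. The cause of these shifts was not tested. With 2 libraries per group a change of low genes was not detectable unless large.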
